A study of Mus musculus with 12 samples.

Results

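The interferon-stimulated genes described here are 37 mouse genes chosen by symbol as a list. All 37 were measured among the 27381 features of 12 microarrays of blood RNA. The platform gene symbols matched 36 of them, and Ifi44 was matched by its Entrez number in a RefSeq gene table because its feature carried no platform symbol. Each array held RNA pooled from 7 C57B16/J mice, with globin transcripts depleted, and the arrays formed 4 groups of 3: untrained pre, untrained post, trained pre and trained post. Trained mice had learned to answer a visual cue on an air-cushioned ball for water, and untrained mice were head fixed and water deprived in the same way but got water at random. All mice had head-fixation surgery at 8 to 12 weeks of age. The labels count 16 males and 18 females, 34 mice in all, which is fewer than 3 separate pools of 7 in each group would need. The paper reports more mice than the labels do and describes the pools of a condition as unique. Which mice entered each pool is not given. The pre sample came from the fronto-nasal sinus under isoflurane at surgery and the post sample was trunk blood at death. Time therefore cannot be told apart from the site of collection, surgery, age and water restriction. Replicates 1 and 2 of every group were in batch 1 and replicate 3 was in batch 2. Because each array held a pool, the spread that the p-values rest on is that of pools and not of mice. Medians of single arrays were 1.44 to 1.52 log2, and the middle value of all feature means, called the median level here, was 1.47. Red cell (Alas2), platelet (Ppbp), B cell (Cd79a) and neutrophil (S100a8) genes, the markers of blood, had mean log2 levels of 12.4, 11.3, 7.62 and 7.32, all above that level. Mean levels of the 37 genes, each on the scale of its own probes, ran from 0.70 to 10.6, and 32 of them lay at or above the median level.

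Interferons are secreted proteins that warn cells of viral infection. Type I interferons bind the receptor chains IFNAR1 and IFNAR2, whose kinases JAK1 and TYK2 activate STAT2, which joins IRF9 in the complex ISGF3. ISGF3 binds interferon-stimulated response elements (ISREs) in promoters and turns on a large set of genes, most of them antiviral. In blood these genes are read in almost every leukocyte, at a low constitutive level when no infection is present, and plasmacytoid dendritic cells are the cells best known for making type I interferon. The 37 genes covered ISG15 conjugation, RNA-binding IFIT proteins, the OAS family, Mx GTPases, nucleic acid sensors, transcription and chromatin factors, the PARP9, DTX3L and PARP14 group, membrane and entry factors, nucleotide and RNA enzymes, and a few other effectors.

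The promoters are shown for the DNA word that ISGF3 reads. Because genes on such a list are known for their response to interferon, a high share of this word is no independent support for the list. RefSeq promoter windows (build GRCm38.p6) were matched by Entrez number for 27 of the 37 genes, and the 250 bases before each start were searched on both strands for GAAANNGAAA, an ISRE-type word. It occurred in 9 of the 27 genes (33.3%), against 936 of 27025 genes with a window (3.46%) and 2.98% of all windows of this length. The genes were Isg15, Ifit1, Ifit3, Oas1a, Oas3, Stat2, Bst2, Rsad2 and Trim30a, and in 3 of them matches overlapped each other. A second word, TTCNNNGAA, a palindromic GAS-type word, was in 5 of the 27 (18.5%) against 8.13% of genes, and in 1 gene it overlapped an ISRE-type match. A match describes letters and is no evidence of binding, and a window without a match says only that the word is not there. The stretches below are written 5′ to 3′ on the strand of the gene, with ISRE-type matches in capitals, where TTTCNNTTTC is the same word on the other strand. Of the 4 genes called below over time, Isg15 is the only one with a match, since Sp100 and Oasl2 have windows without it and Ifi27 had no window, Ifit1 and Ifit3 each hold a pair of matches, Oas3 and Oas1a are OAS genes whose time differences had opposite signs, and Rsad2 is an antiviral enzyme. They lie at chr4:156200863-156200908 (minus strand), chr19:34640773-34640825 (plus strand), chr19:34583361-34583428 (plus strand), chr5:120777713-120777746 (minus strand), chr5:120907526-120907557 (minus strand) and chr12:26456551-26456584 (minus strand).
Isg15: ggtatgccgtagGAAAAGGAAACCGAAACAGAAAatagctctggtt
Ifit1: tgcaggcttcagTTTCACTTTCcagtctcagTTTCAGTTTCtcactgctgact
Ifit3: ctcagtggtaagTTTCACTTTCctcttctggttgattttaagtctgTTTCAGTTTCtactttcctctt
Oas3: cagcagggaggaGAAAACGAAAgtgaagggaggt
Oas1a: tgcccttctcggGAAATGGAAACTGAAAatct
Rsad2: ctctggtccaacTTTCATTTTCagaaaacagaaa
In Isg15 3 matches ran into each other and ended 56 bases before the start, and in Ifit1 the nearer of the pair ended 75 bases before it.

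In the comparison of post with pre blood over both groups, 4 of the 37 genes fell: Sp100, a nuclear body protein, Ifi27, a small membrane protein of the interferon response, Oasl2, an OAS-like antiviral protein, and Isg15, a ubiquitin-like protein that is conjugated to others. Sp100 was 1.62-fold lower, Ifi27 1.80-fold, Oasl2 1.52-fold and Isg15 1.46-fold lower in post blood (6 post arrays against 6 pre arrays). No member rose at this threshold, and Ifit2, an RNA-binding protein, came next to it in the opposite direction at 1.53-fold higher (limma adjusted p = 0.0501). The limma test across all features called 525 of 27381 features lower (1.92%) and 355 higher (1.3%) in the same comparison. At an unadjusted p under 0.05 it gave 16 members lower, against 8.14% of all features, and 2 members higher, against 7.33%. The difference was negative in 33 of the 37 members and in 46.4% of all features, and the median was -0.24 log2 for the members and 0.01 for all features. The list was chosen with earlier results of these data known, so these counts describe the list and are no independent support. Among features at or above the median level, 15 of 32 members and 13.1% of the 13691 features had an unadjusted p under 0.05 in the lower direction. In bulk blood, fewer cells of a type and less RNA per cell cannot be told apart. The untrained and trained comparisons below use separate arrays, and the comparison over both groups is made of these, so the values are given side by side and not as separate support.

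Sp100 lay at 6.62, 6.42 and 6.57 log2 in untrained pre arrays 1 to 3 and at 5.49, 6.19 and 5.68 in untrained post arrays. In trained mice it lay at 6.59, 6.67 and 6.49 before and 6.05, 6.19 and 5.60 after. All 6 post arrays were below all 6 pre arrays. This held for 3 members in the lower direction (Oasl2, Dhx58 and Sp100) and 1.05% of all features. In the higher direction it held for Ifit2, where the share over all features was not counted. The difference of Sp100 was -0.69 log2 (SE 0.13, 95% interval -0.97 to -0.42, limma adjusted p = 0.0119), made of -0.75 in untrained and -0.63 in trained mice.

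Oasl2 lay at 2.85, 2.09 and 2.92 log2 in untrained pre arrays, at 1.69, 1.75 and 1.86 in untrained post arrays, at 2.05, 2.08 and 2.54 in trained pre arrays and at 1.87, 1.87 and 1.86 in trained post arrays. The pre arrays spread widely and the post arrays were uniformly low. The difference over both groups was -0.60 log2 (SE 0.13, limma adjusted p = 0.0238), with -0.85 in untrained mice (limma adjusted p = 0.0581) and -0.35 in trained mice (limma adjusted p = 0.549).

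Ifi27 lay at 3.83, 3.00 and 3.13 log2 in untrained pre arrays and at 2.34, 2.10 and 2.36 in untrained post arrays, with no overlap. In trained mice it lay at 3.10, 2.91 and 3.52 before and at 3.02, 2.40 and 2.21 after, so that trained post array 1 lay among the pre arrays. The difference was -0.84 log2 over both groups (SE 0.18, limma adjusted p = 0.0244), -1.06 in untrained and -0.63 in trained mice, the latter -0.39 without trained pre 3.

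Isg15 lay at 3.74, 3.19 and 3.60 log2 in untrained pre arrays and at 3.25, 2.99 and 2.96 in untrained post arrays, which overlapped. In trained mice it lay at 3.45, 3.08 and 3.57 before and at 2.72, 2.70 and 2.71 after, without overlap and with almost no spread after training. The difference was -0.55 log2 over both groups (SE 0.12, limma adjusted p = 0.0262), -0.44 in untrained and -0.66 in trained mice.

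Ifit2 went the other way. It lay at 3.34, 3.23 and 3.47 log2 in untrained pre arrays, at 3.61, 3.72 and 3.55 in untrained post arrays, at 2.79, 3.52 and 3.25 in trained pre arrays and at 3.79, 4.59 and 4.02 in trained post arrays. Trained post array 2 was the highest of the 12. The difference was 0.61 log2 over both groups (SE 0.15), 0.28 in untrained mice and 0.95 in trained mice (limma adjusted p = 0.0994). Its relatives are Ifit1, which binds viral RNA that lacks the cap marks of the host, and Ifit3. Ifit1 and Ifit3 differed by -0.28 and 0.06 over both groups. Their differences were -0.64 and -0.23 in untrained mice and 0.07 and 0.35 in trained mice, none past the adjusted threshold.

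**Figure D1:**
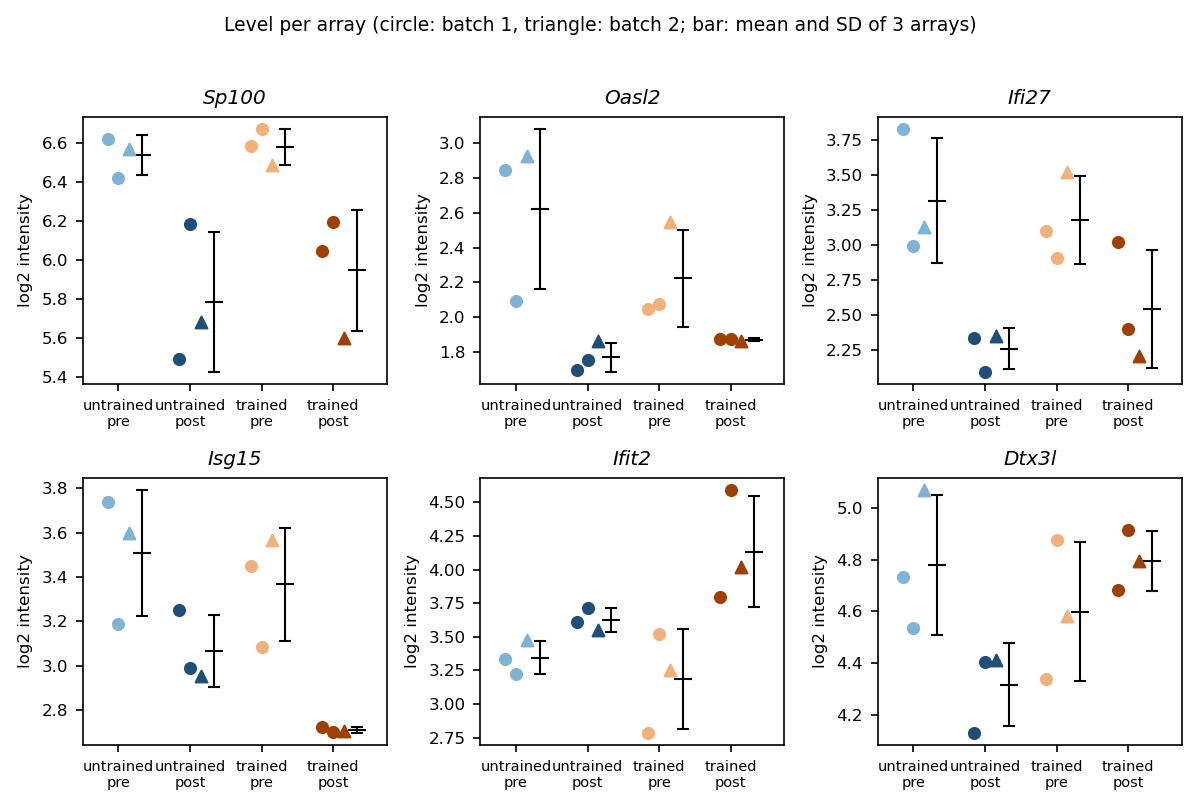
Log2 intensity (vertical axes, scaled per gene) of 6 interferon-stimulated genes in each of 12 arrays by group (horizontal axes). Circles are batch 1, triangles batch 2, and the bar is the mean and SD of 3 arrays. Sp100 and Oasl2 are lower in every post array than in every pre array, and Ifit2 is higher.

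Single arrays decided some of these calls. The adjusted p of Sp100 stayed between 0.0073 and 0.0411 with each of the 12 arrays left out. Oasl2 lost its call without untrained pre 3 (limma adjusted p = 0.0753), untrained post 1 (0.0587), untrained post 3 (0.0609), trained pre 3 (0.0780) or trained post 3 (0.0764). Ifi27 lost it without untrained post 1 (0.0575), untrained post 2 (0.0549), trained pre 3 (0.0743), trained post 2 (0.0624) or trained post 3 (0.0764). Isg15 lost it without untrained pre 1 (0.0531), untrained pre 3 (0.0754), untrained post 2 (0.0545), untrained post 3 (0.0686), trained pre 1 (0.0648), trained pre 3 (0.0848), trained post 2 (0.0559) or trained post 3 (0.0765), and under quantile normalization (0.0615). Ifit2 passed the threshold without trained pre 2 (0.0295) or trained post 1 (0.0279), and under 4 other settings. The differences of the 4 called genes were negative in each batch, from -0.45 to -0.75 in batch 1 and from -0.75 to -1.04 in batch 2.

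In untrained mice 0 members passed the adjusted threshold, where 140 features were lower (0.511%) and 45 higher (0.164%). At an unadjusted p under 0.05, limma gave 14 members lower, against 6.77% of all features, and 1 higher. The smallest p values belonged to Oasl2, Sp100, Ifi27, Ifit1 (-0.64 log2, SE 0.20, limma adjusted p = 0.189) and Oas1a (0.44, SE 0.15, limma adjusted p = 0.208). The 3 post arrays lay below all 3 pre arrays for 12 members, against 8.43% of features, and above them for 2 (Ifit2 and Oas1a). In trained mice 0 members passed, where 38 features were lower (0.139%) and 39 higher (0.142%). At an unadjusted p under 0.05 limma gave 6 members lower, against 5.41% of features, and 1 higher. Fully below were 8 members, against 7.78%, and 1 (Ifit2) was fully above. The smallest p values there belonged to Ifit2, Isg15, Sp100, Herc6 (-0.60, SE 0.22, limma adjusted p = 0.326) and Ifi27. The median difference was -0.25 log2 in untrained and -0.23 in trained mice, against 0.02 and 0.0045 for all features. The difference was negative in both groups for 25 members, against 26.8% of all features. It was positive in both for 3 (Ifit2, Oas1a and Mx2), against 31.8% of all features. For the members higher at an unadjusted p or fully above, the shares over all features were not counted.

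**Figure D2:**
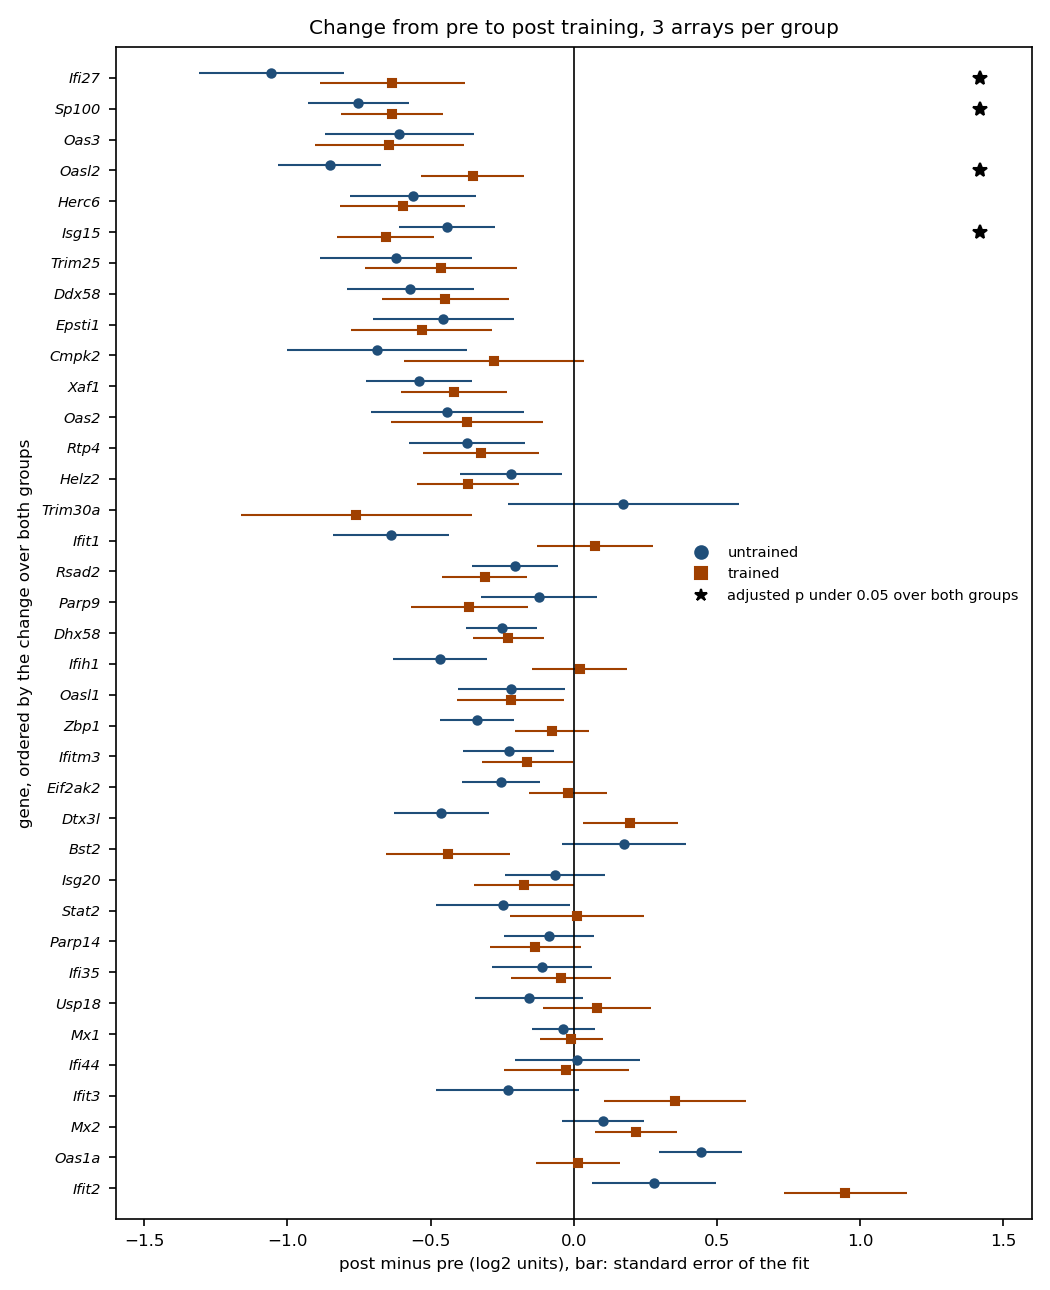
Post minus pre difference (horizontal axis, log2 units) of each of the 37 genes (vertical axis) in untrained mice (circles) and trained mice (squares), with the standard error of the fit as bars. Stars mark the 4 genes past an adjusted p of 0.05 over both groups, Ifi27, Sp100, Oasl2 and Isg15.

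By role, the genes of ISG15 conjugation had a median difference of -0.55 log2 over both groups, negative in 4 of 4. Herc6, the mouse ligase that joins ISG15 to its targets, differed by -0.58 log2 (SE 0.16, limma adjusted p = 0.0683), and was called among features at or above the median level or without untrained post 3. Trim25, a ubiquitin ligase of the RIG-I pathway, differed by -0.54 (limma adjusted p = 0.165). Usp18, the protease that removes ISG15 and restrains the receptor, differed by -0.04. Herc6 lay at 4.97, 5.10 and 5.20 log2 in trained pre arrays and at 4.47, 4.63 and 4.38 in trained post arrays, without overlap.

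The OAS enzymes make 2′-5′ oligoadenylates that switch on RNase L, and 4 of 5 OAS genes had negative differences over both groups. Oas3 differed by -0.63 log2 (SE 0.18, limma adjusted p = 0.0970), Oas2 by -0.41 and Oasl1 by -0.22, none of them past the threshold. Oas3 lay at 4.06, 4.34 and 4.72 in trained pre arrays and at 3.81, 3.68 and 3.70 in trained post arrays, and untrained pre array 1 was its highest at 5.31. Oas1a, whose mean level of 1.04 was below the median of features, differed by 0.23. Together with Mx1, Mx2, Dhx58 and Ifi44 it was 1 of 5 members below that median. The Mx GTPases, which trap viral nucleocapsids, differed by -0.02 (Mx1) and 0.16 (Mx2) at mean levels of 0.74 and 0.70. Common inbred laboratory strains carry a defective Mx1.

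All 5 nucleic acid sensors had negative differences over both groups, with a median of -0.22 log2, and 0 passed the adjusted threshold. Ddx58, the RNA sensor RIG-I, differed by -0.51 log2 (SE 0.16, limma adjusted p = 0.115). Ifih1, the RNA sensor MDA5, differed by -0.22, Dhx58, their relative LGP2, by -0.24, Eif2ak2, the kinase PKR that halts translation, by -0.14, and Zbp1, a sensor of Z-form nucleic acid, by -0.21. In untrained mice Ddx58 lay at 3.28, 3.60 and 3.37 before and at 2.69, 2.97 and 2.87 after, without overlap.

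Among the transcription factors, Stat2, the ISGF3 subunit, differed by only -0.12 log2, Helz2, a nuclear helicase coactivator, by -0.29, and Ifi35 by -0.08. The members of the PARP9, DTX3L and PARP14 group, which add ADP-ribose or ubiquitin to proteins, differed by -0.24, -0.13 and -0.11. Among the membrane and entry genes beside Ifi27, Rtp4, a receptor transporter protein, differed by -0.35, Ifitm3, which blocks fusion of entering viruses, by -0.19, and Bst2 (tetherin), which holds budding virus at the cell surface, by -0.13. Bst2 differed by 0.18 in untrained and -0.44 in trained mice. Cmpk2, a nucleotide kinase, differed by -0.48, Rsad2 (viperin), which makes a chain-ending nucleotide, by -0.26, and the exonuclease Isg20 by -0.12. Xaf1, a promoter of cell death, differed by -0.48 (SE 0.13, limma adjusted p = 0.0746), Epsti1 by -0.49, Trim30a by -0.29 and Ifi44 by -0.01. Trim30a spread most, with trained post arrays at 1.05, 2.67 and 0.96 log2. Trim30a, Oas1a, Ifit1, Ifit3, Sp100 and Ifi27 have close relatives in the mouse genome, and cross-hybridisation to them was not tested.

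**Figure D3:**
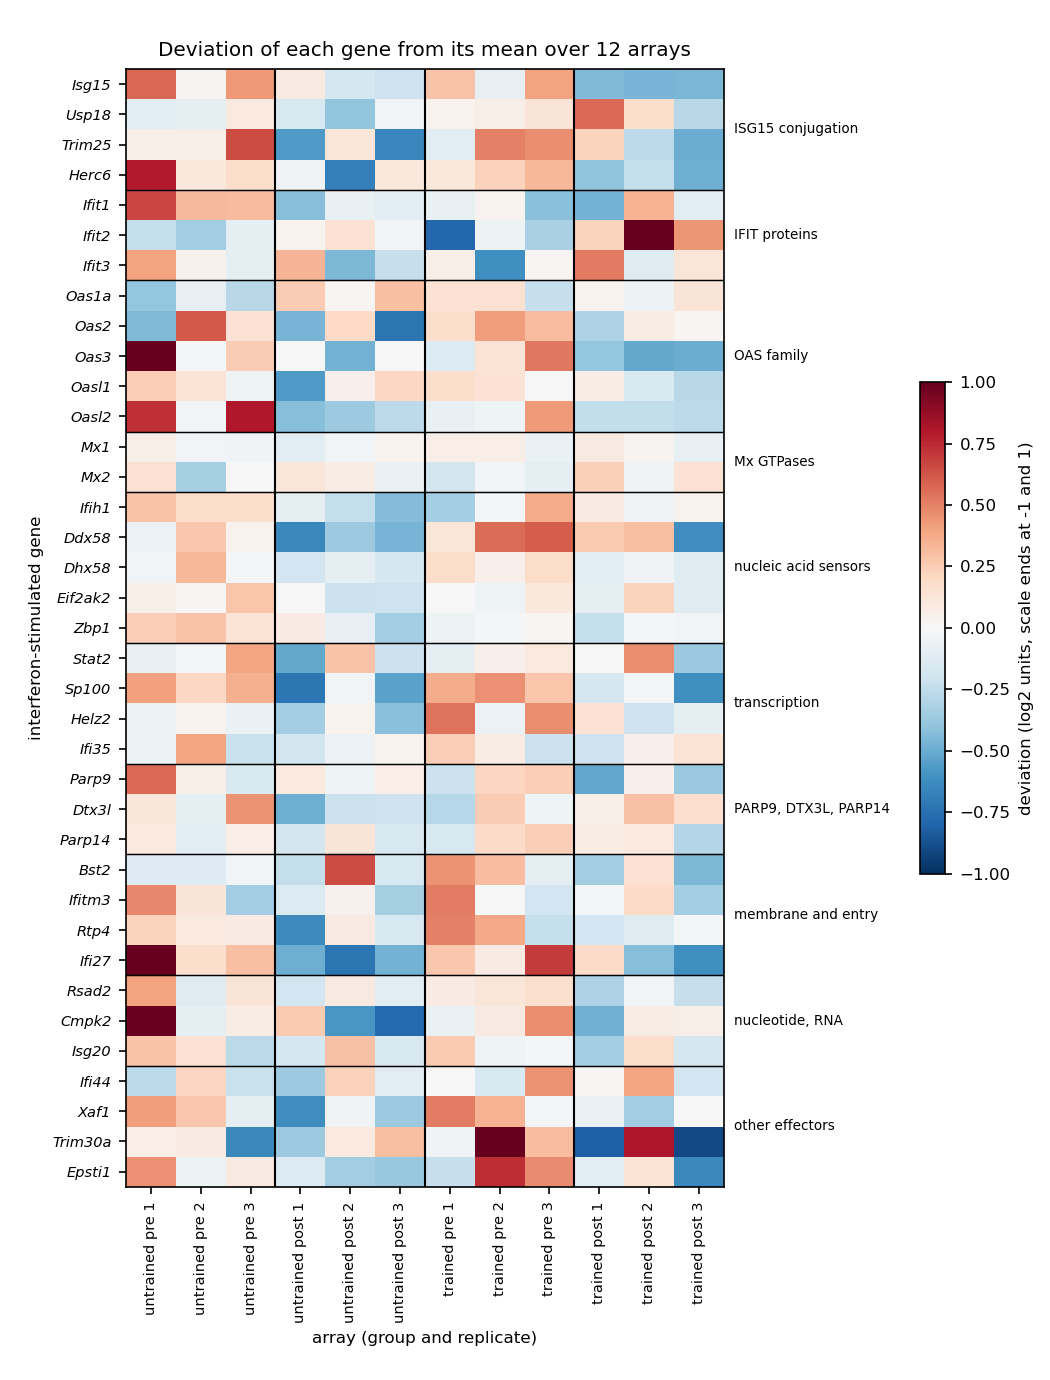
Deviation of each of the 37 genes (rows, grouped by role) from its own mean over 12 arrays (columns, by group and replicate) in log2 units, red higher and blue lower, with the colour scale ending at -1 and 1. Pre columns are redder than post columns for most genes, while Ifit2 is reddest in the trained post arrays.

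Averaged over the 37 genes, the deviation from each gene's mean lay between 0.06 and 0.25 log2 in the 6 pre arrays and between -0.22 and 0.05 in the 6 post arrays. Untrained pre array 1 was the highest, and untrained post 1 and trained post 3 were the lowest at -0.22 and -0.21. Trained post array 2, at 0.05, was the post array closest to the pre arrays. The mean of the 3 IFIT genes did otherwise in trained mice, with -0.27, -0.21 and -0.24 in the pre arrays and 0.09, 0.42 and 0.15 in the post arrays. In untrained mice it lay at 0.28, 0.01 and 0.04 before and at -0.01, -0.13 and -0.12 after. The trained pre arrays were thus below every untrained pre array before any training. Of the 3 IFIT genes, only Ifit2 had trained post arrays wholly above the trained pre arrays. Cell type markers moved in the same arrays. The 5 B cell markers were all called lower in post blood over both groups (Cd79a -1.68 log2, limma adjusted p = 0.00187), with mean deviations of 0.63 to 0.98 in pre arrays, -1.62 to -0.68 in untrained post arrays and -1.52 to 0.28 in trained post arrays. Of 5 neutrophil markers 3 were called lower (S100a8 -1.04, S100a9 -0.93 and Retnlg -1.42), with mean deviations of 0.25 to 0.78 in pre arrays, -0.87 to -0.21 in untrained post and -1.09 to 0.07 in trained post arrays. None of the 5 markers each of T cells, NK cells and plasmacytoid dendritic cells was called, and their medians were -0.28, -0.44 and 0.20 log2. The 5 classical monocyte markers had a median of -0.11, with 3 negative and 1 called higher (F13a1, 0.96), and the 5 nonclassical ones a median of -0.21, with 3 negative and 1 called lower (Cx3cr1, -0.59). Of the 5 platelet markers 4 were positive (median 0.28) and 1 was called higher (Itga2b, 0.74). All 4 measured red cell markers were negative (median -0.29), and 0 were called. The markers of plasmacytoid dendritic cells, which include Bst2, had mean deviations of -0.16 to 0.04 in pre arrays and -0.29 to 0.45 in post arrays. The part of these cell type shifts in the differences of the interferon-stimulated genes was not tested.

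**Figure D4:**
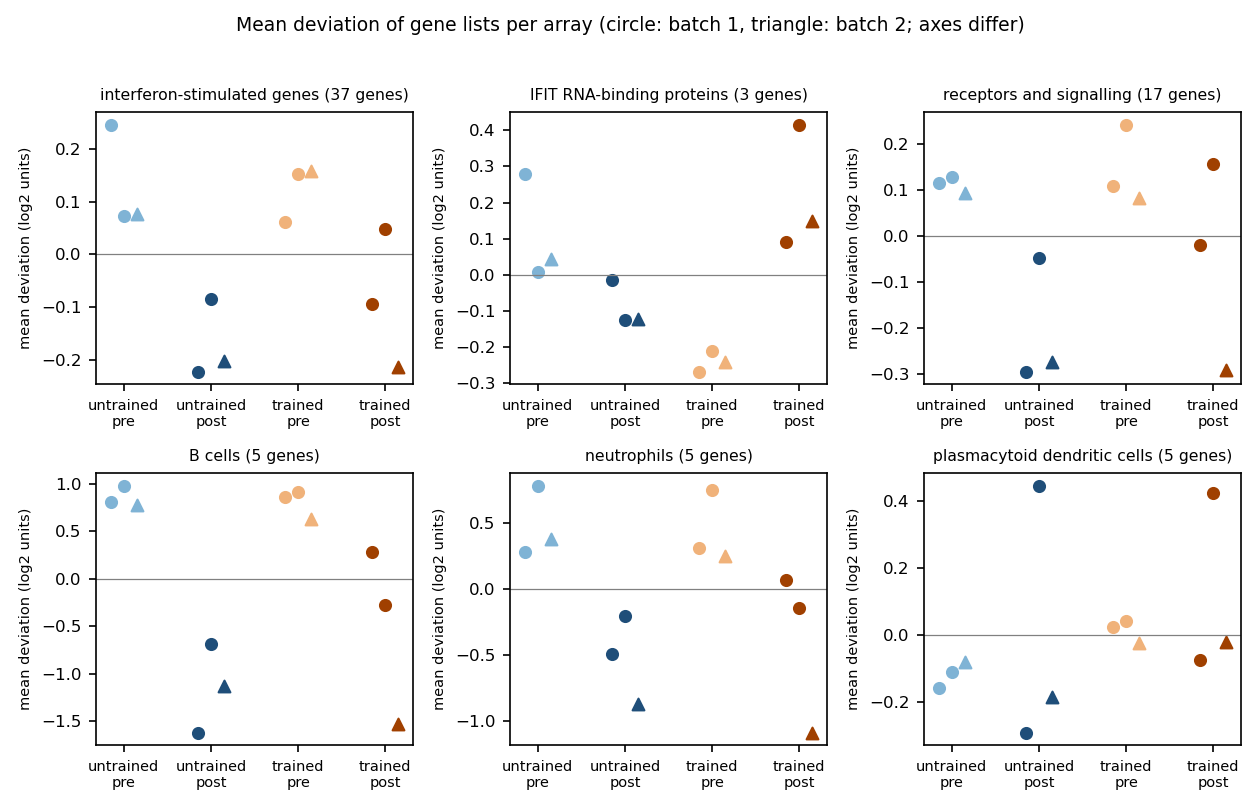
Mean deviation (vertical axes, log2 units, scaled per panel) of 6 gene lists in each array by group (horizontal axes), with circles for batch 1 and triangles for batch 2. The 37 interferon-stimulated genes lie at 0.06 to 0.25 in pre and -0.22 to 0.05 in post arrays, and B cell and neutrophil markers are also lower in post arrays. The mean of the IFIT genes is higher in trained post than in trained pre arrays, and of these genes Ifit2 alone was without overlap. For this mean the trained pre arrays also lie below the untrained pre arrays.

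The other genes of the pathway were counted over both groups in the same fit, which called 1.92% of all features lower and 1.3% higher. Of 16 measured interferon ligands 0 were called, 9 lay below the median of features and the median difference was -0.01 log2. Ifna7 had the smallest p among them (-0.59, limma adjusted p = 0.0857). Of 17 receptor and signalling genes 0 were higher and 2 lower: Irf7, the interferon-inducible master factor of type I interferon genes, at -0.75 (SE 0.15, limma adjusted p = 0.0210), and Irf2, which competes with activators at ISREs, at -0.49 (SE 0.11, limma adjusted p = 0.0360). Irf7 lay at 7.17, 6.49 and 6.63 log2 in untrained pre arrays, at 6.23, 5.76 and 5.80 in untrained post arrays, at 6.21, 6.42 and 6.83 in trained pre arrays and at 6.02, 5.86 and 5.58 in trained post arrays. In both groups every post array was below every pre array of that group. Irf9, which joins Stat2 in ISGF3, differed by -0.57 (limma adjusted p = 0.104) and did not pass.

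Of 16 sensors and adaptors outside the 37, 1 was lower: Unc93b1, which carries Toll-like receptors to endosomes, at -0.92 (limma adjusted p = 0.0219). Of 90 other interferon-induced genes 13 were lower and 1 higher, against 1.92% and 1.3% of all features. The lower ones were Ifi209, Mndal, Ifi27l2a, Ly6e, Slfn2, Phf11b, Ly6a, Shisa5, Pml, Ms4a4c, Psmb8, Tap1 and Samd9l, and the higher one was Cd274, the checkpoint ligand PD-L1 (0.61, limma adjusted p = 0.0227). Ifi209, of the DNA-binding IFI200 family, fell by 1.50 log2 (2.83-fold, SE 0.15, limma adjusted p = 0.00179). Its untrained arrays lay at 3.85, 4.16 and 3.92 before and at 2.06, 2.67 and 1.96 after, and its trained arrays at 4.07, 4.07 and 3.94 before and at 2.77, 3.32 and 2.25 after. Ifi209 passed in untrained mice (-1.75, limma adjusted p = 0.0122) and in trained mice (-1.25, limma adjusted p = 0.0407). In untrained mice Slfn2, Ly6a, Ly6e and Ifi27l2a also fell.

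Whether training itself left a mark was asked by comparing trained with untrained mice after training, where 0 of the 37 genes passed, as did 0 of all features (0%). At an unadjusted p under 0.05 the limma test gave 2 members higher and 0 lower, against 3.03% of features higher. These were Dtx3l, the ubiquitin ligase partner of PARP9, at 0.48 log2 (SE 0.17, limma adjusted p = 0.723), and Ifit2 at 0.51 (SE 0.22, limma adjusted p = 0.766), which was 0.27 without trained post 2. Dtx3l lay at 4.13, 4.41 and 4.41 log2 in untrained post arrays and at 4.68, 4.91 and 4.79 in trained post arrays, without overlap. Ddx58 (0.47), Usp18 (0.35) and Isg15 (-0.36) had the next smallest p values. Without trained post 3 Ddx58 differed by 0.80 and Usp18 by 0.62, and without trained post 1 Usp18 differed by 0.13. Trained arrays lay wholly above untrained arrays for 4 members (Ifit2, Oasl2, Ifih1 and Dtx3l), against 4.84% of features. For Oasl2 this rested on a narrow gap, with untrained post 3 at 1.859 and trained post 3 at 1.862. They lay wholly below for 1 (Isg15), where the share over all features was not counted. The difference was positive for 27 members and negative for 10, while 53.3% of all features were negative. The median was 0.10 log2 for the members against -0.01 for all features. Among features at or above the median level it was 0.12 for the 32 members and 0.03 for all, with 45.1% of all negative. Without untrained post 1 the median of the 37 was 0.0082 and 18 of the 37 differences were negative, and without trained post 2 they were 0.048 and 15. The median was 0.13 in batch 1 and -0.01 in batch 2, and Ddx58 and Usp18 had negative differences in batch 2 (-0.16 and -0.25), so the direction did not hold within batch 2.

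Before training, the same comparison asks whether the groups differed at the start. Again 0 members and 0 of all features (0%) passed, with a smallest adjusted p of 0.999 among the members. At an unadjusted p under 0.05 the limma test gave 2 members lower in trained mice, against 2.01% of features: Ifit1 (-0.59 log2, SE 0.20) and Oasl2 (-0.40, SE 0.18), the latter -0.23 without untrained pre 1 and -0.63 without untrained pre 2. Helz2 (0.34, and 0.23 to 0.55 with each trained pre array left out), Oas1a (0.27, and 0.43 without trained pre 3) and Zbp1 (-0.24) came next. Ifit1 lay at 4.08, 3.74 and 3.73 log2 in untrained pre arrays and at 3.34, 3.45 and 2.99 in trained pre arrays, without overlap. The median over the members was -0.0014 log2.

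The interaction asks whether the time difference depended on training. It passed for 0 members and for 1 of all features (0.00365%), with a smallest adjusted p of 0.850 among the members. At an unadjusted p under 0.05 the limma test gave 3 members higher, against 2.8% of features: Dtx3l at 0.66 log2 (SE 0.23), Ifit1 at 0.71 (SE 0.29) and Ifit2 at 0.67 (SE 0.30), which was 0.42 without trained post 2. Trained minus untrained was -0.59 before and 0.12 after training for Ifit1, so its larger part was there before training. The same differences were -0.18 and 0.48 for Dtx3l, and -0.16 and 0.51 for Ifit2. Ifih1 (0.49, and 0.31 without trained pre 1) and Oas1a (-0.43) came next. For the 4 genes that fell over time the interaction was 0.12 for Sp100 (95% interval -0.43 to 0.66), 0.50 for Oasl2 (-0.05 to 1.05), 0.42 for Ifi27 (-0.36 to 1.20) and -0.22 for Isg15 (-0.73 to 0.30).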

How the data were processed

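The platform was the Affymetrix Mouse Gene 2.0 ST array, with 12 arrays of blood RNA. The authors deposited log2 intensities, 1 per Entrez gene, that they had background-corrected, quantile-normalized and summarised with RMA (submitters' processing notes: affy version 1.62.0, R version 3.6.0). No source used here says if a batch adjustment preceded deposit. No detection call exists in these values, so differences of genes below the median level are uncertain in size.

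Groups and batches came from the labels. The lmFit and eBayes functions of limma 3.58.1 (R 4.3.3) fitted 4 group means and a batch term (7 residual degrees of freedom) on all 27381 features, with two-sided tests and Benjamini-Hochberg adjustment over all of them at 0.05. Values of a gene list per array are mean deviations from each gene's mean. The genes named per contrast were those past the threshold or, where fewer than 5 passed, the 5 with the smallest p. From each pathway list those past the threshold were named and otherwise up to 3. Members, roles and lists were chosen with earlier results of these data known. The fit was tested on simulated data. Alternatives were no batch term, a replicate block, a fit of only the arrays compared, single batches, bright features (mean at the median level or higher), a further quantile normalization, median centring, limma's trend option, array weights and leaving out each array. The number of arrays limits the precision.

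Whether equal replicate numbers pair the arrays was checked on deviations from group means. The correlation passed 0.1 in 2 of 12 such pairs (-0.190 to 0.135), so the numbers were not taken as pairs.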

Additional observations from a re-analysis of the deposited data

How the results depend on the processing

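Of 206 recomputed counts and medians over the 37 genes, 191 were classed as the same, a class that also held medians whose sign changed. With single arrays left out, the interaction's median ran from -0.012 to 0.14 log2. The median difference before training ran from -0.052 to 0.071. The median difference between trained and untrained mice after training was -0.011 log2 in batch 2 alone, where Ddx58 differed by -0.156 and Usp18 by -0.248, opposite in sign to the values over all arrays, and the cause was not tested. In untrained mice the count of genes past the threshold went from 0 to 1 with a replicate block (Ifi27), with features at or above the median level alone (Oasl2) and with quantile normalization (Oasl2), and the median was -0.355 log2 over features at or above the median level, where fewer genes entered. In trained mice the median was -0.360 log2 in batch 2 alone. Over both groups the count of 4 was 0 in batch 1 alone, which has fewer arrays, and 1 to 5 with single arrays left out. It was 1 (Sp100) without trained pre 3 or trained post 3, and 2 without untrained pre 3, untrained post 1, untrained post 2 or trained post 2. With a replicate block or no batch term it was 5, Ifit2 being added as the higher gene, and among features at or above the median level it was 6, with Herc6 and Ifit2 added. Sp100 was called in 19 of 20 tested settings, the exception being batch 1 alone. The interaction's median was 0.178 log2 in batch 1 alone and -0.149 in batch 2 alone. Quantile normalization moved the share of higher calls among all features from 24.3% to 60.3% in untrained mice, from 50.6% to 64.0% in trained mice and from 40.3% to 51.4% over both groups. The replicate block changed no other count of calls among the 37 genes.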

Other observations

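Negative regulators and interferon-induced GTPases each held 1 called gene in either direction. Of 13 negative regulators 1 was higher and 1 lower in post than in pre blood over both groups, where 1.3% of all features were higher and 1.92% lower. Nlrx1, a mitochondrial NLR protein that restrains antiviral signalling, was higher at 0.69 log2 (SE 0.10, limma adjusted p = 0.00402). It lay at 3.30, 3.55 and 3.28 log2 in untrained pre arrays, at 3.71, 3.96 and 4.02 in untrained post arrays, at 3.22, 3.04 and 3.19 in trained pre arrays and at 4.03, 4.15 and 3.87 in trained post arrays, and all post arrays were above all pre arrays. Ptpn6, the phosphatase SHP-1, was lower at -0.88 (limma adjusted p = 0.0210).

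Of 15 measured GTPases of the GBP and IRG families, which attack vacuoles that hold pathogens, 1 was higher and 1 lower over both groups, against the same shares of all features. Igtp was higher at 0.73 log2 (SE 0.13, limma adjusted p = 0.0124), and in trained mice alone at 1.04 (limma adjusted p = 0.0480). Gbp9 was lower at -1.03 (limma adjusted p = 0.0148). The median difference of the 15 was -0.01.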
